A study of Mus musculus with 21 samples.

Results

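Partly methylated CpG-dense stretches are short pieces of DNA in which CpGs lie as close together as in a CpG island, yet the reads are neither nearly all unmethylated nor nearly all methylated. They were found on the autosomes of 1 bisulfite library of mouse sperm. Each CpG was given a density, which counts the listed CpGs up to 100 bp away to either side together with the CpG itself, and a state, which is the share of methylated reads pooled over those CpGs, where they held at least 10 reads. A stretch was a run of 10 or more consecutive listed CpGs, each with a density of at least 15 and a state of 20% to 80%. The rule gave 640 stretches with 10975 CpGs, where 17294 runs of 10 or more dense CpGs of any state and 830105 dense CpGs were listed. The stretches were chosen by CpG density and by the methylation of these same reads, so their levels describe the choice and are given without a test.

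The series concerns histones and their marks in sperm and in round spermatids, the haploid cells that precede them, in 21 samples, of which the bisulfite library was analysed here. Its label gives C57BL/6 sperm and DNA associated with nucleosomes. Per the labels' protocols motile spermatozoa of C57BL/6J mice were obtained by swim-up, and micrococcal nuclease, which digests the DNA between nucleosomes, was used to prepare mononucleosomal chromatin. There was no replicate, no treatment and no contrast of genotypes, the sources used here do not give the age or number of the mice, and no p-value is printed.

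CpG methylation in mammals is found over most of the genome and is usually absent from CpG islands, the CpG-dense sequences at many promoters. In most of the genome of a mature sperm the histones have been replaced by protamines, and a small part keeps nucleosomes. A class of CpG-island promoters, many of them at genes of meiosis and germ cells, is methylated in the embryo and in somatic tissues and is used in the germ line, where it loses methylation. A level between the extremes can arise where molecules differ from one another at the same CpGs, where neighbouring CpGs differ, or where a window spans the border between an unmethylated and a methylated segment.

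The promoters of 4 genes of meiosis show what such a stretch looks like, and their 250 bases before the gene start are printed because they lie in or beside stretches in this library. Spata22 encodes a factor of meiotic recombination, Fkbp6 a protein needed for male meiosis and for the piRNA pathway, Meioc a regulator of entry into the meiotic programme, and Hormad1 a protein of the axes of meiotic chromosomes. The sequences are from RefSeq on GRCm38.p6, written 5′ to 3′ in the direction of the gene, and capitals mark every CpG. They lie at chr11:73329491-73329740 on the + strand (Spata22), chr5:135350045-135350294 on the - strand (Fkbp6), chr11:102665335-102665584 on the + strand (Meioc) and chr3:95559427-95559676 on the + strand (Hormad1). All 4 genes were picked for printing after their values were seen.
Spata22: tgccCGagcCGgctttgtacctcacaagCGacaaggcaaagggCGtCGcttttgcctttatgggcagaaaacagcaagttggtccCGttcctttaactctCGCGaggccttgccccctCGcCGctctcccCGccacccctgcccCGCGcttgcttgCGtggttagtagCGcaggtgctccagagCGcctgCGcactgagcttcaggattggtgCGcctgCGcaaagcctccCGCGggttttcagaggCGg
Fkbp6: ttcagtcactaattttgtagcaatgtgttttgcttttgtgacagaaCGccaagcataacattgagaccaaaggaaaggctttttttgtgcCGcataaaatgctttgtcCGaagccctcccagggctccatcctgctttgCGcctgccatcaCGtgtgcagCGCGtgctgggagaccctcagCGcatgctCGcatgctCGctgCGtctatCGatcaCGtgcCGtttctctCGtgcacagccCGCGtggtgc
Meioc: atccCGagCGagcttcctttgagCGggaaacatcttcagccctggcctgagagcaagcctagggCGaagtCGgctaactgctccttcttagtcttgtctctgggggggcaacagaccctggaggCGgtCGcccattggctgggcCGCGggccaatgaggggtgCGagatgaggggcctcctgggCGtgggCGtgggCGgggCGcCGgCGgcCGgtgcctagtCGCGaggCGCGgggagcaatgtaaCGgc
Hormad1: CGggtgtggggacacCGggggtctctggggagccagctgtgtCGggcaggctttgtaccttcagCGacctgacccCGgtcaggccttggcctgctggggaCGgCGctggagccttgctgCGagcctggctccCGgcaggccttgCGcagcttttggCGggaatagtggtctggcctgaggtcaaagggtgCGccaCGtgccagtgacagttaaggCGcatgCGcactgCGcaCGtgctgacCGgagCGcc

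In the Fkbp6 sequence all 17 CpGs were listed, with 68 methylated of 122 reads (55.7%). The 14 CpGs inside the stretch had 3 to 10 reads each and single levels of 33.3% to 75%, so none of them was fully methylated or unmethylated. The 22 CpGs of the Spata22 sequence had 36 methylated of 105 reads (34.3%), and the 16 inside the stretch ranged from 0% to 75% with 3 to 8 reads each. In Spata22 the CpGs nearest the start were the more methylated ones, and the CpG 3 bases before the start, just outside the stretch, had 4 methylated of 5 reads.

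Hormad1 had a gradient over the same distance. None of the reads at the 4 CpGs farthest from its start was methylated (7, 9, 6 and 7 reads), whereas the last 2 CpGs before the start had 3 methylated of 4 reads each. Its 19 CpGs together held 24 methylated of 121 reads (19.8%). Meioc had 20 methylated of 86 reads (23.3%) over the 21 of 22 CpGs that were listed, and the CpG 66 bases before the start had no read. Single CpGs of the Meioc stretch had 1 to 8 reads, too few to order them.

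**Figure D1:**
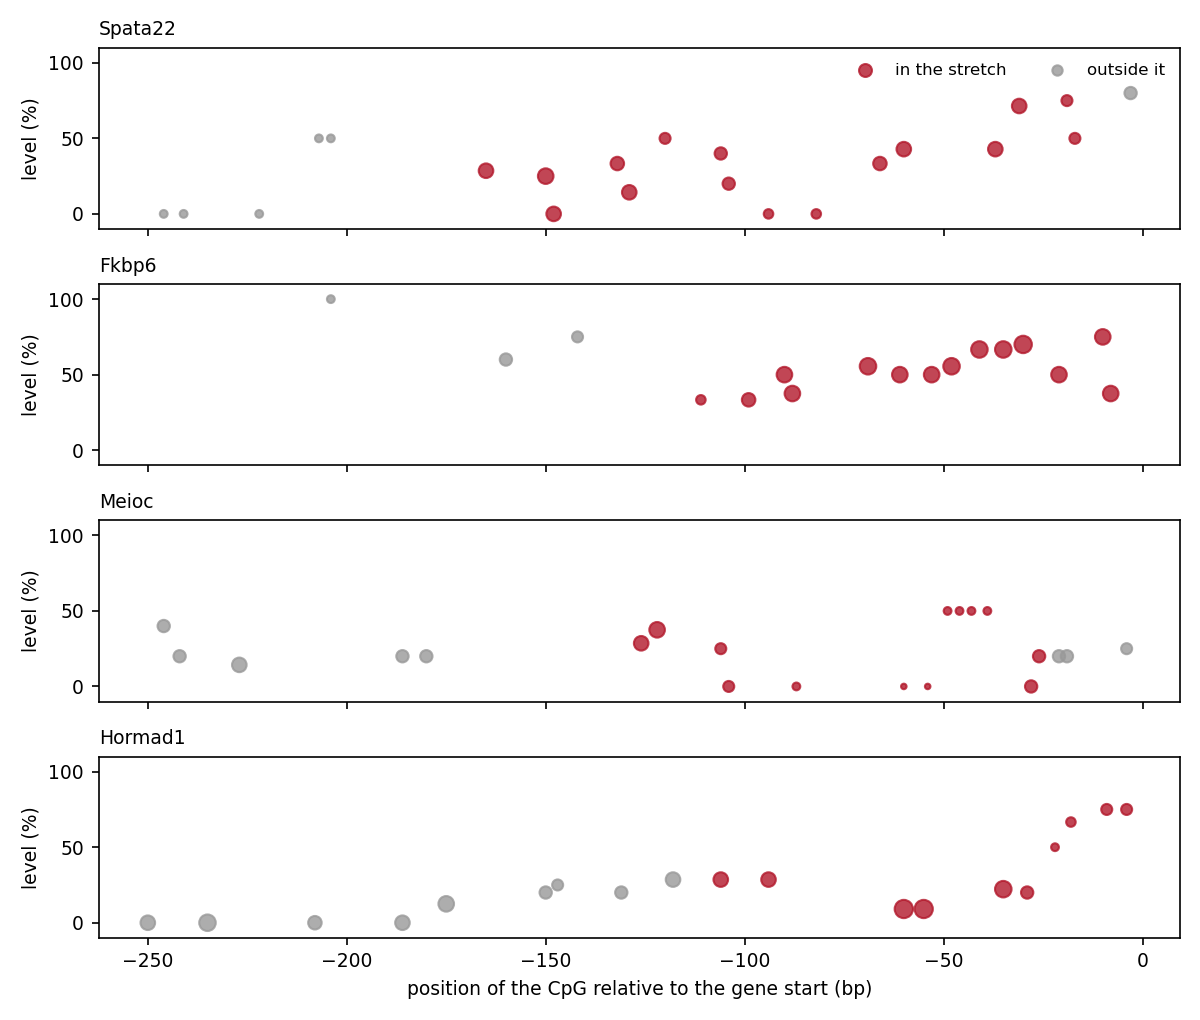
Methylation level (%) of each listed CpG in the 250 bases before the start of Spata22, Fkbp6, Meioc and Hormad1, against its position relative to the gene start in bp. Red points are CpGs in a stretch and grey points are CpGs outside it, with larger points for more reads (1 to 11); the points of Fkbp6 in the stretch lie between 33.3% and 75%, and those of Hormad1 reach 75% next to the start.

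Across the genome the stretches were small and few. Their median length was 130 bp (quartiles 101 and 177 bp, range 31 to 772 bp) with a median of 15 CpGs (10 to 71). They covered 96.6 kb with 57770 CpG reads and held 1.32% of the dense CpGs. Runs found by the same rule with a state under 20% numbered 16469, with a median of 311 bp and 35 CpGs, and runs with a state over 80% numbered 249, with a median of 110 bp and 15 CpGs. These are called unmethylated and methylated runs below. The stretches had a median density of 17 CpGs, against 21 in unmethylated runs and 16 in methylated runs.

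The levels of the stretches were spread over the whole window that the rule allows, with most of them in its lower part. The median stretch was methylated in 36.1% of its reads (quartiles 28.6% and 48.2%), against 1.58% in unmethylated runs and 97.4% in methylated runs. Of the 640 stretches, 190 had a pooled level of 20% to 30%, 174 one of 30% to 40% and 119 one of 40% to 50%. Another 63 lay at 50% to 60% and 80 at 60% to 80%, while 10 were under 20% and 4 over 80%, which the rule permits because it pools neighbouring CpGs outside the run. Just inside the limit on length, the 38 stretches of 10 CpGs had a median level of 33.0%, and just outside it, 69 runs of 9 CpGs had one of 32.2%.

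All 19 autosomes held stretches. Their number per 100 dense runs was 3.70 over all autosomes, between 2.09 on chromosome 16 and 5.83 on chromosome 18. Within 10000 bp of another stretch lay 119 (18.6%), and stretches within that distance formed 573 separate places in all. The share for other dense runs or for random places was not computed, so this does not tell whether they cluster. The arrangement of CpGs recurred elsewhere for some of them: in 64 stretches (10%) a series of 9 CpGs had the same 8 spacings at another place on the autosomes, against 8.62% of unmethylated runs and 27.3% of methylated runs. Longer runs offer more such series, and as a share of all series of 9 CpGs 3.47% recurred in stretches, 0.504% in unmethylated runs and 12.6% in methylated runs. The 64 stretches with recurring spacing had a median level of 46.6% and a median of 3 reads per CpG, against 35.03% and 4.62 reads in the other 576. The part of misplaced reads in these was not tested.

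The first question was whether single CpGs in the stretches are intermediate. They were: 4000 of the 5133 CpGs that had at least 5 reads were themselves at 20% to 80%, which is 77.9% (95% Wilson interval 76.8% to 79.0%). A further 19.11% were under 20% and 2.96% over 80%. Among all dense CpGs of that depth 4.62% were intermediate, and among all autosomal ones 25.8%, so the background at high density is far lower than elsewhere in the genome. In unmethylated runs 3.13% were intermediate and in methylated runs 9.35%. Since the state of a run is pooled from the same reads, these shares describe the choice of the runs. Intervals here cover counting error at most, because CpGs on 1 read are not independent and PCR copies are not independent molecules.

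What the rule does not fix is how the reads are divided among the CpGs, since a mixture of unmethylated and methylated CpGs could pool to the same state. If each CpG had the pooled level of its stretch, 76.1% of the 5133 CpGs would be expected at 20% to 80% at their read numbers. With 2 levels per stretch, from the best division into a left and a right part, 72.2% would be expected. The observed 77.9% was slightly above both. Of 431 stretches with at least 5 CpGs of 5 or more reads, 404 (93.7%) had at least 50% of these CpGs at intermediate levels and 112 (26.0%) had all of them there. In 30 of the 431 a CpG under 20% and a CpG over 80% occurred in the same stretch.

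The scatter of levels within a stretch can also be read against that of independent draws. The variance among CpGs of a stretch, divided by the binomial variance at its pooled level, had a median of 0.731 (quartiles 0.462 and 1.22) over these 431 stretches. It reached 2 or more in 27. The CpGs of the median stretch thus differed by no more than read sampling gives. Neighbouring CpGs share reads, which lowers this ratio.

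**Figure D2:**
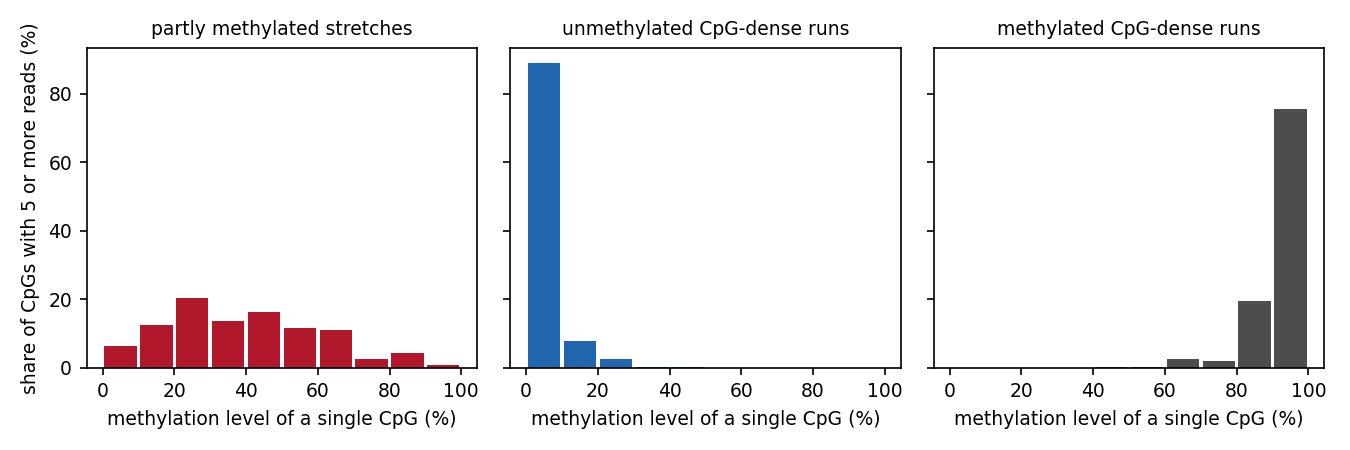
Share of CpGs with 5 or more reads (%) by the methylation level of the single CpG in classes of 10 points, in partly methylated stretches (5133 CpGs), unmethylated runs (413258) and methylated runs (909). In the stretches 77.9% of the CpGs lie between 20% and 80%, with a broad peak below 50%, whereas the other runs pile up at the ends.

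Few stretches crossed a boundary between an unmethylated and a methylated segment, and the rule itself disfavours such stretches. Near a sharp border, windows of 100 bp to either side pool to 20% to 80% over a short distance only. A run of 10 dense CpGs may not fit there, so the count does not tell how common boundaries are. Each stretch, with the CpGs within 100 bp of its ends, was divided at the point where 2 levels describe the reads best, with at least 3 CpGs and 10 reads on each side. In 7 of 640 stretches (1.09%, Wilson interval 0.531% to 2.24%) one side was under 20% and the other over 80%, which is called a boundary here. In 123 (19.2%, 16.4% to 22.5%) the sides differed by 40 points or more without reaching both limits, a step. Had a step been set at 60 points, 3.13% would have had a boundary or step, against 20.3% at 40 points. The remaining 510 (79.7%, 76.4% to 82.6%) had neither. The median difference between the sides was 27.5 points (quartiles 20 and 36.8), a size to which choosing the best point contributes, and in 274 stretches (42.8%) both sides lay at 20% to 80%. The CpGs of stretches with no step were intermediate in 78.2% of cases (3427 of 4382) and those of stretches with a step in 77.1% (568 of 737). In stretches with a boundary 5 of 14 were intermediate (35.7%).

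Stretches with a boundary were thinly read. Their median was 30 reads and 1.76 reads per CpG, against 54 reads and 3.77 per CpG in those with a step and 73.5 reads and 4.64 per CpG in those with neither. Of the 5 longest in CpGs, the boundary with most reads lay at chr11:111371338-111371456 (mm9, as are all positions of stretches), where the stretch had 135 reads over 19 CpGs, and with its surroundings it was divided into 13 CpGs at 8.51% and 7 at 85.4%. The others rested on few reads: chr2:165372814-165372937 had 23 reads over 21 CpGs, with sides at 100% and 8.33%, and chr8:86734047-86734159 had 1 read at each of 21 CpGs, with sides at 90% and 0%. At such depths the sides rest on a few reads each.

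Steps were better covered. The sides include the CpGs within 100 bp of the ends, so they hold more CpGs than the stretch. The stretch at chr8:28231995-28232377 had 215 reads over 40 CpGs (47.9%), and with its surroundings it was divided into 37 CpGs at 35.4% on the left and 12 at 83.1% on the right. The stretch at chr14:55251079-55251348 had 157 reads over 34 CpGs (33.8%), with 34 CpGs at 26.8% on the left and 9 at 86.7% on the right. The stretch at chr7:13593073-13593470 had 156 reads over 40 CpGs (32.7%), with 6 CpGs at 92.9% on the left and 47 at 35.7% on the right. In each of these 3 the side over 80% held fewer CpGs. So it was at chr7:88020597-88020958, with 34 CpGs at 38.2% and 10 at 83.3%. The step at chr11:69213240-69213566 had no side over 80%, with 17 CpGs at 23.9% and 23 at 66.7%.

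The stretches with most CpGs had no step. The longest in bp and in CpGs lay at chr10:79439497-79440268 and had 150 methylated of 284 reads over 71 CpGs (52.8%, Wilson interval 47.0% to 58.6%); 23 of its 24 CpGs with 5 or more reads were intermediate. At chr12:72419107-72419692, 59 CpGs had 90 methylated of 317 reads (28.4%), with 26 of 34 such CpGs intermediate and 8 under 20%. At chr8:72975612-72976224, 55 CpGs had 160 methylated of 381 reads (42.0%), and 36 of 48 were intermediate, with 6 on each side of the window. At chr12:112215169-112215652, 50 CpGs had 91 methylated of 301 reads (30.2%), with 27 of 36 intermediate and none over 80%. In each of these long tracts most of the well-read CpGs were intermediate.

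The ends of the stretches showed where they stop. Of 1280 ends, 1047 (81.8%) lay where CpG density dropped below 15, and at 972 of these the next CpG still had a state of 20% to 80%. The state fell below 20% at 216 ends (16.9%) and passed 80% at 17 (1.33%). The state of the next CpG is pooled over a window that still holds CpGs of the stretch. An unmethylated run lay within 100 bp of 101 stretches (15.8%) and within 2000 bp of 178 (27.8%), while a methylated run lay within 2000 bp of 5.

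Neighbouring CpGs with equal read numbers were alike in methylated reads to a degree that depended on their distance. Pairs of CpGs with equal read numbers (4 to 19) were compared, since such pairs are likely, though not shown, to lie on the same molecules. At 2 to 5 bp the squared difference in methylated reads was 0.232 of that of independent reads over 1426 informative pairs (0.244 ± 0.165, SD over 19 autosomes), and 65.1% of the pairs had equal numbers of methylated reads, against 34.1% for independent reads. The ratio was 0.326 at 6 to 10 bp, 0.376 at 11 to 15 bp, 0.456 at 16 to 20 bp, 0.556 at 21 to 30 bp and 0.813 at 31 to 40 bp. At 41 to 60 bp it was 1.25 and at 61 to 100 bp 1.19, where pairs differed by as much as independent reads or more. The share of pairs with such equal read numbers fell as well, from 34.3% at 2 to 5 bp to 5.64% at 41 to 60 bp. Distant pairs are thus less likely to lie on the same molecules. A loss of likeness with distance cannot be told apart from a loss of shared reads. One autosome reached 6.29 at 41 to 60 bp; without stretches of recurring spacing the highest autosome was 2.48 and the pooled ratio 1.17.

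The ratio of close pairs was lower in the stretches than at the other kinds of CpG compared. At 2 to 5 bp the ratio was 0.232 in the stretches, 0.640 ± 0.046 at partly methylated CpGs in sparse surroundings (SD over 19 autosomes) and 0.855 ± 0.0413 in unmethylated runs. It was 0.212 without the stretches of recurring spacing, 0.234 in stretches with no step, 0.218 in those with a boundary or step and 0.241 for pairs with 6 or more reads. Close CpGs in a stretch thus held equal numbers of methylated reads more often than independent reads would give. In methylated runs the ratio was 0.716, from 122 informative pairs. A pair with a single methylated read, or a single unmethylated one, differs as independent reads do, whatever its molecules. Such pairs weigh more where levels are near the extremes, and the rule chose the kinds by level. The part of level in the contrast between kinds was not tested. Whether the methylated reads came from other cells, other alleles or other animals than the unmethylated ones cannot be told apart in these counts.

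**Figure D3:**
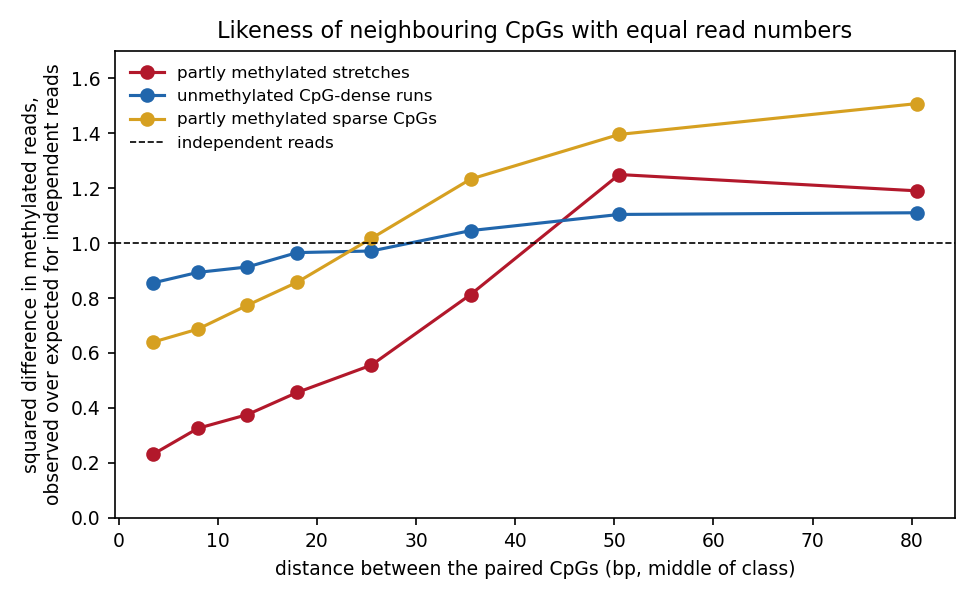
Squared difference in methylated reads between 2 CpGs with equal read numbers, divided by the value for independent reads (dashed line at 1), against the distance between the CpGs in bp. The stretches (red) are at 0.232 for the closest pairs, below partly methylated sparse CpGs (yellow, 0.640) and unmethylated runs (blue, 0.855), and pass 1 between 31 to 40 and 41 to 60 bp.

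The flanks within 2000 bp, leaving out the nearest 100 bp that enter the rule, were more methylated than the stretch on both sides in most cases. Of 589 stretches with at least 20 reads on each side, 395 (67.1%) had both flanks above their own level and 33 (5.60%) had both below it. Flanks on either side of 50% were found at 201 (34.1%), while both flanks were at 50% or more at 301 (51.1%) and both under 50% at 87 (14.8%). A flank under 20% opposite one over 80% occurred at 20 (3.40%), both flanks over 80% at 62 (10.5%) and both under 20% at 9 (1.53%). The median was 50.2% for the less methylated flank and 78.0% for the more methylated one.

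Pooled by distance, methylation was lowest just outside the stretches and not in them. It was 38.1% inside, 32.7% at 101 to 300 bp, 35.9% at 301 to 500 bp, 45.1% at 501 to 1000 bp, 56.2% at 1001 to 2000 bp and 62.0% at 2001 to 5000 bp. Around unmethylated runs it climbed over the same distances, with 2.05% inside, 15.4% at 501 to 1000 bp and 56.3% at 2001 to 5000 bp. Around methylated runs it was 95.4% inside and 73.4% at 2001 to 5000 bp. As a pool of reads, the surroundings of the stretches were thus at intermediate levels out to 1000 bp, where those of unmethylated runs were still mostly unmethylated. Such a pool can mix low and high flanks, and it need not match counts of stretches by their own flanks. Within 2000 bp both flanks lay at 20% to 80% at 257 of the 589 stretches (43.6%). Flank levels were not used in the choice of the stretches, but neighbouring DNA tends to be alike.

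**Figure D4:**
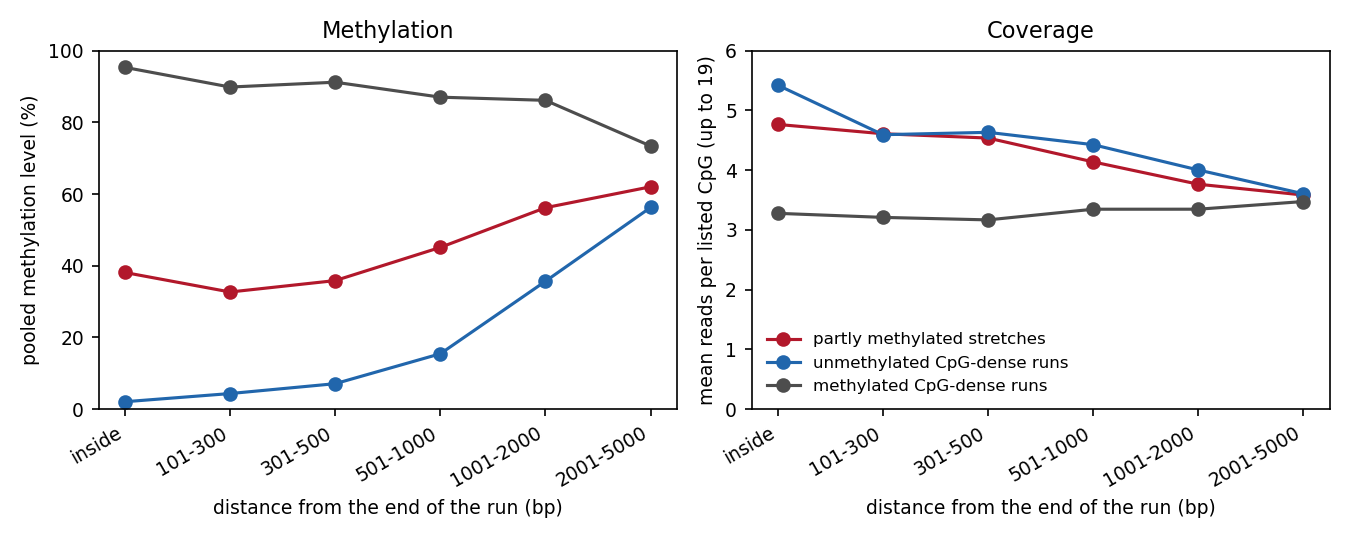
Pooled methylation level (%, left) and mean reads per listed CpG of up to 19 reads (right) inside runs and in classes of distance from their ends in bp, for partly methylated stretches, unmethylated runs and methylated runs. In the stretches the level is 38.1% inside and 62.0% at 2001 to 5000 bp, and coverage is 4.77 inside and 3.58 at that distance.

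Coverage is the number of reads per listed CpG in this library of nucleosome-associated DNA. It need not measure recovery of nucleosomes alone, as the treatment of duplicates is unknown and CpGs without reads are not listed. Counting CpGs of up to 19 reads, the stretches had a mean of 4.77 reads (10923 CpGs), between 5.42 in unmethylated runs and 3.28 in methylated runs. The ratio was 0.879 over unmethylated runs and 1.45 over methylated runs. Means per run were 4.76 ± 2.07 reads in stretches (SD over 639), 5.30 ± 1.78 in unmethylated runs (16466) and 3.26 ± 1.61 in methylated runs (248). The stretches differed from either kind by less than the SD between stretches.

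The kinds differ in density, and with density matched the gap to unmethylated runs depended on it. At 15 to 19 CpGs the stretches had 4.76 reads, against 4.88 in unmethylated and 3.23 in methylated runs, a ratio of 0.976 and 1.47. At 20 to 24 CpGs the ratios were 0.923 and 1.35. At 25 or more CpGs they were 0.780 and 1.55, from 585 CpGs of stretches and 109 of methylated runs. Coverage of unmethylated runs was higher in each denser class (4.88, 5.20 and 6.03 reads), while that of stretches was 4.76, 4.80 and 4.70. Among stretches, those methylated at 20% to 30% had a median of 5.08 reads per CpG and those at 60% to 80% one of 3.54. Density counts listed CpGs only, so deeply read DNA is counted as denser, and a stretch needs reads at consecutive CpGs. The part of this in the ratios was not tested.

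**Figure D5:**
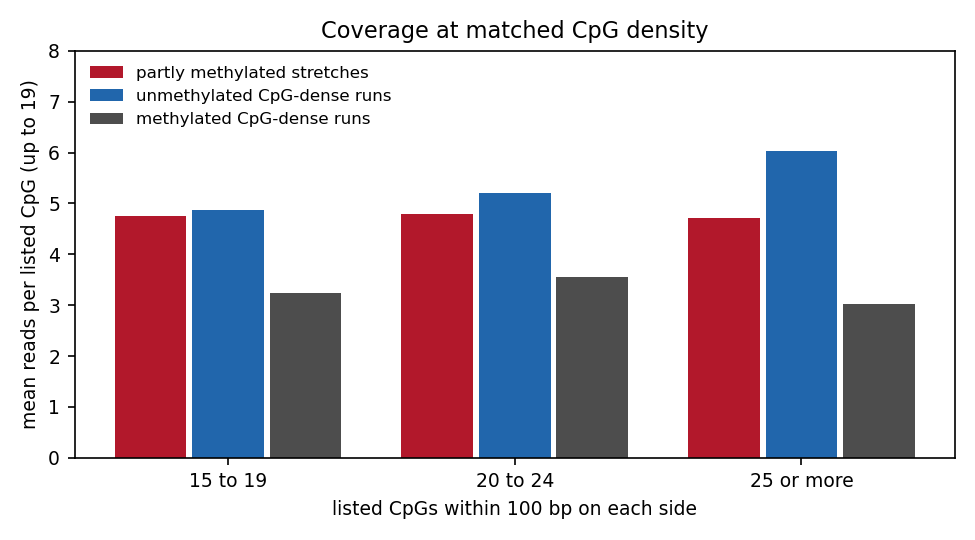
Mean reads per listed CpG of up to 19 reads in partly methylated stretches, unmethylated runs and methylated runs, within classes of CpG density (listed CpGs up to 100 bp away). The stretches stand beside unmethylated runs at 15 to 19 CpGs (4.76 and 4.88 reads) and below them at 25 or more (4.70 and 6.03), and above methylated runs in each class.

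Single stretches departed widely from these means. CpGs above 19 reads occurred in 5 stretches, 52 CpGs in all. At chr17:39984727-39984869 every one of 12 CpGs was above that limit, with a maximum of 496 reads and 970 methylated of 4515 reads (21.5%). Reads of many copies of a sequence can be pooled at such a place, so its level need not be that of a single locus. This was not tested. The pair at chr13:120277051-120277398 and chr13:120277507-120277842 had 777 and 729 reads with levels of 42.9% and 65.4%, and in the first of them 49 of 56 well-read CpGs were intermediate. Of the 3 stretches with the highest mean within the limit, 2 lay on chromosome 18, with 14.4 ± 1.55 and 12.6 ± 1.21 reads (SD over 15 and 11 CpGs). The third, at chr10:80298673-80298755, had 12.8 ± 5.37 reads over 10 CpGs and 34 methylated of 128 reads. At the other end, 3 stretches had 1 read at each CpG, among them chr17:34257327-34257412 with 6 methylated of 10 reads and flanks at 1.16% and 0.43%.

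Genes were then placed by the spacing of CpGs in RefSeq promoter sequences, which was looked up among the listed CpGs. Of 15382 autosomal promoters with 8 or more CpGs, 14045 were found at 1 place, for 12133 genes. Chromosome 18 was not used in this step, so 610 stretches remain. A placed gene start lay within 1000 bp of 76 of the 610 (12.5%), against 64.5% of 15995 unmethylated runs, which are longer, and 0.417% of 240 methylated runs. The stretches were thus mostly away from placed starts. They lay near 76 genes, 0.626% of the genes placed, and 25 stretches spanned a start. Among 10431 dense promoters (at least 10 reads), 100 had a pooled level of 20% to 80% (0.959%), 10328 were lower and 3 higher.

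Among those 76 genes are several that act in germ cells, and the genes named here were chosen after their values were seen. Stretches spanned or lay near the starts of some genes of the synaptonemal complex, the protein axis that joins homologous chromosomes in meiosis. Tex12, of its central element, had 41 methylated of 133 reads over 19 CpGs (30.8%, Wilson interval 23.6% to 39.1%), with 12 of 17 CpGs intermediate and the others under 20%. Syce3, also of the central element, had 14 of 62 reads methylated (22.6%). Sycp2, of the lateral element, had a stretch 82 bp downstream of its start with 38 of 116 reads methylated (32.8%), and Sycp1, of the transverse filaments, one 529 bp downstream with 28 of 124 (22.6%). Other listed genes of the complex, Syce1, Syce2 and Sycp3, had no stretch within 1000 bp. Their promoters were at 29.5%, 0.870% and 73.8%.

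Of the genes of meiotic recombination on the lists, some had stretches near their starts and others, among them Dmc1, Msh5 and Mlh3, had none within 1000 bp. Rnf212, a factor of crossover formation, had 35 of 85 reads methylated over 21 CpGs (41.2%), and all 8 CpGs with 5 or more reads were intermediate. Hsf2bp, a partner of the recombination protein BRCA2, had 26 of 46 (56.5%). The whole Fkbp6 stretch, of which the printed sequence holds a part, had 118 methylated of 264 reads over 34 CpGs (44.7%), and 25 of its 27 CpGs with 5 or more reads were intermediate. The Hormad1 stretch had 44 of 100 (44.0%) and the Spata22 stretch 30 of 90 (33.3%). Meioc had 3 stretches within 1000 bp, at 35.3%, 24.4% and 24.3%.

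RNA-binding and chromatin proteins of the germ line were also represented. Boll, of the DAZ family of RNA-binding proteins, had a stretch over its start with 35 of 119 reads methylated (29.4%), and Ddx4, the vasa RNA helicase, one 82 bp downstream with 20 of 64 (31.2%) and all 7 well-read CpGs intermediate. Dazl, a relative of Boll, had a step: its stretch had 22 of 56 reads methylated (39.3%), with flanks at 5.6% and 63.8%. Brdt, a bromodomain protein of spermatogenic cells, had 22 of 65 (33.8%). Dmrtb1, a transcription factor of spermatogonia, had 35 of 128 (27.3%). The promoter as a whole, from 250 bases before to 50 after the start, could differ from the stretch. It had 56 of 67 reads methylated in Dazl (83.6%), 11 of 131 in Boll (8.40%) and 8 of 120 in Ddx4 (6.67%), against a median of 1.46% over all dense promoters.

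Gene lists, which were also drawn up with promoter values in view, give the counts around these genes. Of 39 listed genes of meiosis 30 were placed, and their promoters, from 250 bases before to 50 after the start, were under 20% methylated in 13, at 20% to 80% in 16 and over 80% in 1, with a median of 22.7%. The median over all 14038 placed promoters was 1.78%. Of 21 meiosis promoters that were dense, 9 were partly methylated, against 0.959% of all dense promoters, and 10 of the 30 genes had a stretch within 1000 bp, against 0.626% of all genes placed. Not all genes of the group did so: no read was methylated at the promoters of Tex14 (89 reads), Psmc3ip (97 reads) and Mnd1 (43 reads), and Stag3, a cohesin subunit of meiosis, had 8 methylated of 249. Of 21 genes of germ plasm and the piRNA pathway, which silences transposons, 17 were placed, with 10 low, 6 partly methylated and 1 high, a median of 8.40% and 5 genes with a stretch, against 0.626% of all genes placed. Of the 11 dense promoters in this list 1 was partly methylated, 9 were low and 1 was high, so most of the 6 were not dense. The share of partly methylated promoters over all placed ones, dense or not, was not computed.

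Promoters that carry a maternal imprint are methylated on the maternal allele in somatic cells and unmethylated in sperm, so methylated reads there can mark DNA of other cells. A placed promoter need not be the imprinted one, since genes such as Gnas and Grb10 have several. Of 16 listed, 11 were placed, with 8 under 20%, 3 at 20% to 80% and a median of 16.1%. The median over all placed promoters was 1.78%. Of the 8 dense promoters in this list 2 were partly methylated, against 0.959% of all dense promoters. Single values were 0% for Inpp5f (26 reads), 2.04% for Grb10 and 2.23% for Gnas. Plagl1 was at 9.63%, Peg3 at 10.5%, Mcts2 at 16.1%, Mest at 17.9% and Nap1l5 at 18.5%. The highest were Kcnq1ot1 at 23.0%, Zrsr1 at 37.5% and Nnat at 60%, the last on 25 reads. Stretches lay near 4 of the 11, Nnat, Mcts2, Zrsr1 and Gnas, against 0.626% of all genes placed. The part of DNA from somatic cells in the levels of the stretches was not tested.

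The promoters were searched for CACGTG, a palindrome bound by basic helix-loop-helix proteins, and for TCCCGC or its reverse complement GCGGGA, which are part of E2F binding sites. CACGTG occurred in 10 of 45 promoters overlapped by a stretch (22.2%), in 18% of the 100 partly methylated dense promoters, in 11.05% of the 10328 low ones and in 7.15% of all 32851 promoters. TCCCGC on either strand occurred in 40% of the 45 promoters (18 of them), in 29% of the partly methylated and 44.8% of the low dense ones, and in 19.98% of all. Both motifs hold a CpG, and the sets were not matched for CpG content. The 45 promoters were overlapped by 41 stretches, and some share a stretch, so they are not all separate cases. In the sequences printed above CACGTG begins 101 and 37 bases before the start in Fkbp6 and 57 and 20 bases before it in Hormad1. TCCCGC or its complement occurs once each in Spata22 (22 bases before), Meioc (228) and Hormad1 (95). The motifs share no positions with each other.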

How the data were processed

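The deposited table gives, per the file headers, raw counts of all reads and of methylated reads for each CpG of 1 library; no other per-sample columns were used (0 left out). Bowtie and mm9 are named per the submitters' processing notes. The sources used here do not give the trimming, the alignment settings, the treatment of duplicates or the conversion rate. CpGs without reads are not listed, and whether positions count from 0 or 1 is not stated. The autosomes held 15119333 listed CpGs with 59869498 CpG reads, a median of 3 reads, and 2.004% of CpGs had 10 or more. Intervals are 95% Wilson intervals for counting error only.

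Positions of stretches are as in the table, on mm9. No mm9 genome or annotation was used. RefSeq promoters (GRCm38.p6) were placed where 4 successive CpG spacings, at least 8 CpGs and at least 60% of the promoter's CpGs matched the table with no other CpG listed in between; no coordinate was carried between builds. Of 31396 autosomal entries, 8216 were placed with all CpGs listed and 4 fitted several places on their own autosome. Each entry with at least 8 CpGs was also tried on another autosome, not on all of them, and 2 were found there. Most stretches described without a gene came from sets taken by rule. These were the 5 with most CpGs of each class, the 3 highest and 3 lowest in coverage and the 3 longest. Not every member of these sets is described. Outside these sets are the stretch with every CpG above the coverage limit and the second of the pair on chromosome 13. The members, gene lists and comparisons were chosen with earlier results of these data known. All steps ran in Python 3.11.15 (scipy 1.17.1, numpy 2.4.6, pandas 2.3.3, matplotlib 3.10.9). Finding runs, dividing them into sides and comparing pairs of CpGs were tested on simulated reads of a single chromosome. The other steps, among them the placing of promoters, were not.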

Additional observations from a re-analysis of the deposited data

Results flagged for a closer look

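The X chromosome lies outside the autosomal rule, and the same rule applied to it gave 22 partly methylated CpG-dense stretches among 425 dense runs. That is 5.18 per 100 dense runs, against 3.70 on the autosomes, whose single values reach 5.83. The X stretches held 2996 reads with a pooled level of 49.7%, against 37.2% for the autosomal stretches. Pooled levels give most weight to deeply read stretches. The difference was not tested.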

How the results depend on the processing

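No paired analysis was possible because the data come from 1 library. Of 48 alternative values, 27 stayed the same, 21 moved and 0 reversed. Same meant within counting error, within 1.5 times of a number or, for pairs of CpGs, within the SD over autosomes. At 41 to 60 bp that SD was 1.22, so the label says little there. Only the coverage ratios and the ratio of pairs at 2 to 5 bp could be labelled reversed. Values on pairs of CpGs and on gene starts were chosen after seeing the data. Limits of 30% to 70% gave 351 stretches, 87.4% intermediate CpGs, 26.8% with a boundary or step, and coverage ratios of 0.838 over unmethylated and 1.39 over methylated runs. A density of 20 gave 109 stretches, 75.5% intermediate CpGs and ratios of 0.801 and 1.42. Runs of 15 or more CpGs gave 366 stretches and a ratio of 0.862 over unmethylated runs. With 50 pooled reads for the state 15.2% had a boundary or step, and the ratios were 0.946 and 1.20. Single CpGs of 10 or more reads were intermediate in 79.1%. A step of 60 points left 3.13% with a boundary or step. The ratios were 0.897 and 1.40 with no limit on coverage and 0.865 and 1.49 between medians of runs. Flanks of 5000 bp lay on either side of 50% at 30.4%. The causes were not tested, beyond the smaller sets these settings leave by construction. Few single CpGs can be read precisely, as 10 reads were reached by 2.004% of them. A single library gives no spread between animals, and the stretches, chosen by level, are few.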
